A study of Mus musculus with 26 samples.

Results

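Nfe2l2, Nfe2l1, Keap1, Bach1, Maff, Mafg, Mafk and Sqstm1 encode the transcription factors and adaptors that control transcription from antioxidant response elements. They were chosen by name for this role and not by a rule on their values, though earlier results of these data were known. They are 8 of the 20430 gene symbols measured as RNA and 8 of the 19941 measured as ribosome footprints. The cells were NIH3T3, an established line of mouse embryonic fibroblasts. Polyadenylated RNA was sequenced in 16 libraries of 8 groups, and ribosome footprints, the mRNA fragments covered by ribosomes, in 10 libraries of 5 groups, with 2 replicates in every group. One experiment compared cells at 44 °C for 2 h and at 42 °C for 8 h with a control for heat, in RNA alone. The other compared cells given H2O2 for 2 h or 7 h, an oxidative stress, and cells given KCl for 2 h or 7 h, an osmotic stress, with a control shared by both agents, in RNA and in footprints. The sources used here do not give the doses of H2O2 and KCl or the temperature and time of the controls. No group carried a genetic change that the labels name.

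NRF2, the product of Nfe2l2, binds antioxidant response elements as a dimer with a small MAF protein and switches on genes of glutathione synthesis, thioredoxin, NADPH supply and heme breakdown. In unstressed cells KEAP1 holds NRF2 for ubiquitination by a cullin ligase, and electrophiles and oxidants that modify KEAP1 cysteines let newly made NRF2 accumulate. The control therefore acts largely on the protein, which was not measured here. BACH1 is a repressor that takes the place of NRF2 at the same elements and leaves DNA when it binds heme. MAFF, MAFG and MAFK have no activation domain and serve as partners of both. p62, the product of Sqstm1, is a receptor of selective autophagy that can capture KEAP1, and Sqstm1 is itself a known NRF2 target. NRF1, the product of Nfe2l1, belongs to the same family and drives proteasome genes after it is released from the endoplasmic reticulum.

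The promoters of the 8 genes were searched for the core of the antioxidant response element, TGACNNNGC, on both strands. The windows ran from 250 bases before to 50 bases after each RefSeq start on assembly GRCm38.p6, whose chromosomes are those of mm10, the build named in the submitters' processing notes. Of the 8 genes, 4 had a match, in 4 of their 14 windows, while 12.4% of all 32851 windows and 14% of all 27025 genes had one. The stretches around these matches are shown because 4 of the genes described here, NRF2 itself and its 3 small MAF partners, held the letters to which NRF2 and small MAF proteins are known to bind. They are written 5′ to 3′ along the strand of the gene, with the match in capitals.
Nfe2l2, chr2:75704835-75704913, minus strand: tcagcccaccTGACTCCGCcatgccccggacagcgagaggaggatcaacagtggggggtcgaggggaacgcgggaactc
Maff, chr15:79346449-79346577, plus strand: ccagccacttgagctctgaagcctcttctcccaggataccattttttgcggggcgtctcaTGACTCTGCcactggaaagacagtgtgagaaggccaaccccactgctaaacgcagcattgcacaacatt
Mafg, chr11:120633751-120633779, minus strand: ctctgcaggaGCACGGTCAacccggcgag
Mafk, chr5:139791463-139791535, plus strand: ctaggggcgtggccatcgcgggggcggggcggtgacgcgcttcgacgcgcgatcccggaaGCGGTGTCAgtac
In Nfe2l2 the match began at position -240 and in Maff at -112, counted from the annotated start, and both read in the direction of the gene. In Mafg, at -222, and in Mafk, at -13, the element lay on the opposite strand, so the capitals are its reverse complement. The Mafg window opened at a start inside the annotated gene, which spans chr11:120625117-120634955, so its match lies within Mafg, while the other 3 matches lie upstream of the annotated genes. The core of the heat shock element, GAANNTTC, and the core of the ATF4 element, TTGCATCA, had no match in the 14 windows, while 7.86% and 0.895% of all windows held them. A match is a description of the letters, and binding was not measured.

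RNA libraries held about 30452100 to 42698200 expected counts in the heat experiment and 24441900 to 45244400 in the H2O2 and KCl experiment, and footprint libraries held 1460750 to 5168540. The lowest and the highest of these footprint totals belonged to replicates 1 and 2 of 2 h of H2O2. The labels do not say whether replicates came from separate cultures, so the p-values measure the spread between these libraries. All 8 fibroblast marker genes were present, with a summed level of 8111 to 22877 CPM, which are counts scaled to a common library total. This sum was lowest at 7 h of H2O2, at 8111 to 8181 CPM against 16615 to 16875 CPM in the control. The summed level of 7 epithelial, blood and endothelial markers was 6.13 to 6.56 CPM in the same control, 20.9 CPM at 2 h and 24.6 to 26.1 CPM at 7 h of H2O2. Cd68, which encodes a lysosomal protein used as a macrophage marker, reached 23.9 CPM. Among the other 6 the highest level in any library was 3.10 CPM for Pecam1, 1.95 CPM for Cdh1, 1.001 CPM for Epcam, 0.888 CPM for Krt8, 0.182 CPM for Cdh5 and 0.118 CPM for Ptprc. The part of these marker levels in the results below was not tested. In RNA from a whole culture, fewer cells of a type and less RNA per cell cannot be told apart.

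The CPM of the 8 genes are those after scaling by the trimmed mean of M-values within an experiment, and the experiments were scaled apart, so levels are not ordered across them. A gene was called where the Benjamini-Hochberg adjusted p of edgeR's quasi-likelihood test over all genes was under 0.05, and every log2 change is followed by its standard error. All 8 genes passed the filter on low counts in each fit. At 44 °C, 4 of the 8 genes were called higher, against 35.4% of all 12747 genes tested, and 2 lower, against 35.7%. At 42 °C, 2 were called higher, against 31.7% of all genes, and 5 lower, against 31.9%. Against the shared control, 7 were higher and 1 lower at 2 h of H2O2, where 27.3% of 13256 genes were higher and 26.5% lower. After 7 h of H2O2, 6 were higher and 2 lower, with 39.4% and 31.1% of all genes. At 2 h of KCl, 6 were higher and 2 lower, with 27.2% and 27.0% of all genes. After 7 h of KCl, 7 were higher and 1 lower, with 37.2% and 31.6% of all genes. The 4 comparisons of H2O2 and KCl share their 2 control libraries. The median log2 change of the 8 genes was 0.88 at 2 h of H2O2, 0.67 at 7 h of H2O2, 0.60 at 2 h of KCl and 0.58 at 7 h of KCl, and that of all genes lay between 0.00 and 0.08. In heat it was 0.23 at 44 °C and -0.15 at 42 °C.

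**Figure D1:**
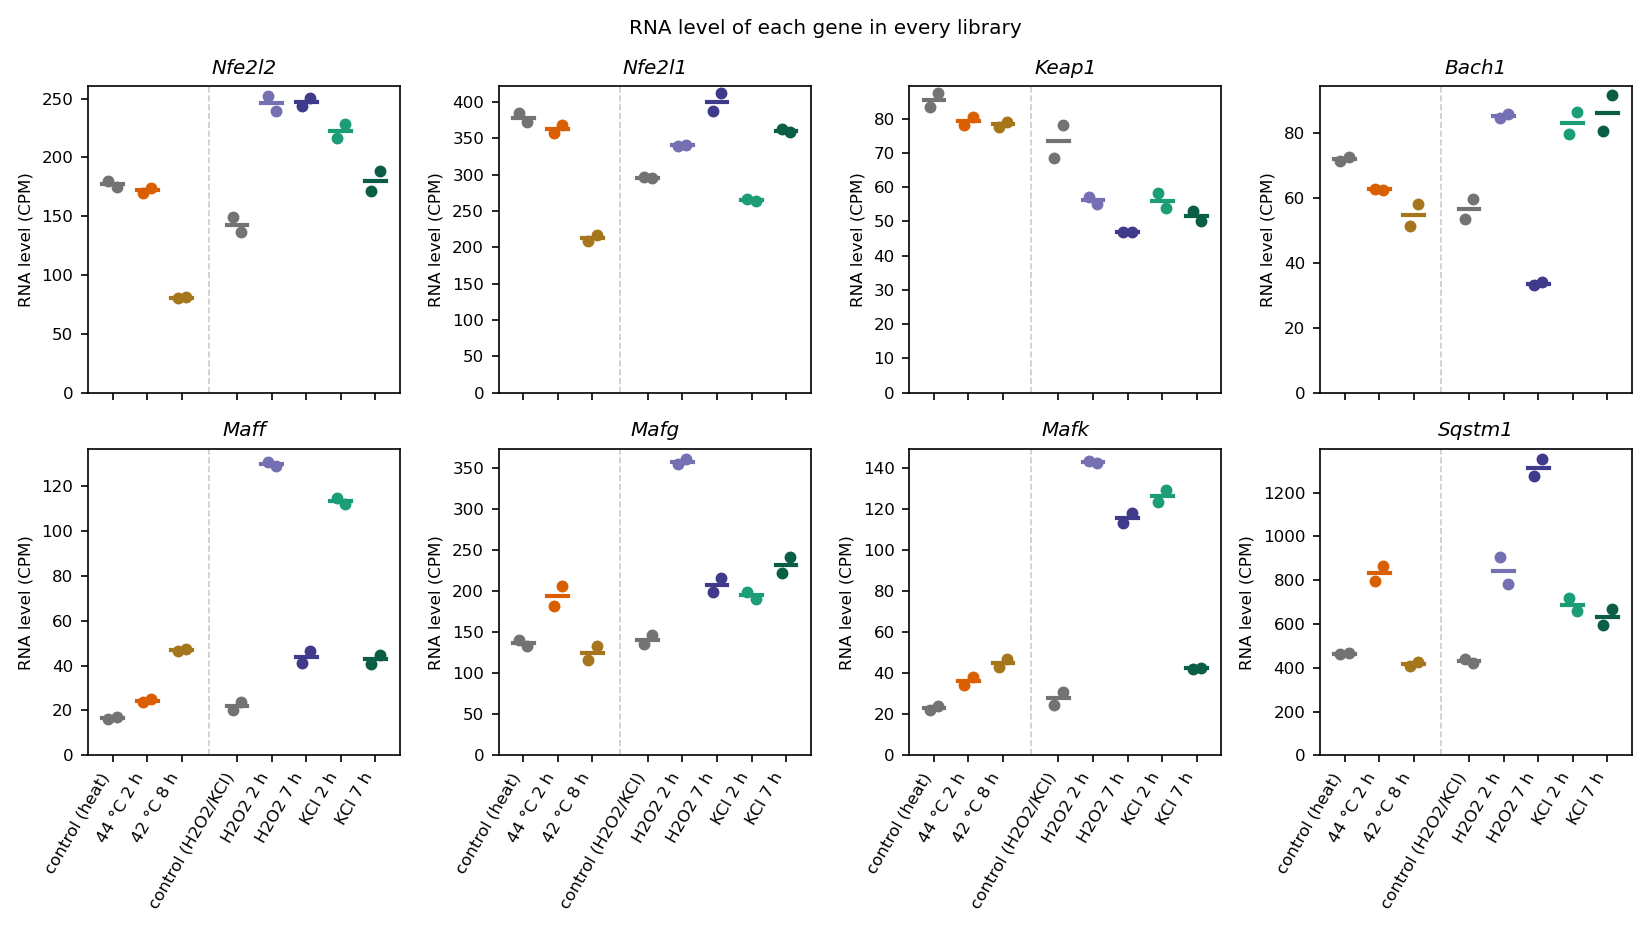
RNA level of each of the 8 genes in CPM (vertical axis, from 0) in every library, by group (horizontal axis); points are the 2 replicates and short bars their mean, and the dashed line parts the heat experiment from the H2O2 and KCl experiment, which were scaled apart. Maff, Mafg and Mafk stood highest at 2 h of H2O2, Sqstm1 at 7 h of H2O2, and Bach1 was at 33.1 and 34.0 CPM at 7 h of H2O2, below every other library of its experiment.

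Nfe2l2 RNA was higher under both agents and lower in long mild heat. Its level was 149 and 136 CPM in the control, 252 and 239.5 CPM at 2 h and 244 and 250.4 CPM at 7 h of H2O2. At 2 h of KCl it was 217 and 229 CPM, and at 7 h 171 and 188 CPM. All treated libraries lay above both control libraries, and only the groups at 2 h and 7 h of H2O2 overlapped. The log2 change was 0.78 ± 0.07 at 2 h of H2O2 (edgeR, adjusted p = 3.64e-07), 0.79 ± 0.07 at 7 h of H2O2 (adjusted p = 1.11e-07), 0.64 ± 0.07 at 2 h of KCl (adjusted p = 2.44e-06) and 0.33 ± 0.07 at 7 h of KCl (adjusted p = 0.000579). In heat, Nfe2l2 RNA was at 180 and 175 CPM in the control, 170 and 174 CPM at 44 °C, and 80.7 and 81.0 CPM at 42 °C. It fell 2.19-fold at 42 °C (log2 -1.13 ± 0.04, edgeR, adjusted p = 4.61e-11). At 44 °C the log2 difference was -0.04 ± 0.04 and was not called (edgeR, adjusted p = 0.334), and it was 0.02 on log2(TPM + 1).

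Footprints of Nfe2l2 did not follow its RNA at 2 h of H2O2. They were at 162 and 154 CPM in the control and at 98.0 and 169 CPM at 2 h of H2O2, where the 2 replicates lay on either side of the control. At 7 h of H2O2 they were at 248 and 282 CPM, above every other footprint library. The log2 change at 7 h was 0.74 ± 0.23 (edgeR, adjusted p = 0.0288). That call was lost with any 1 of the 4 libraries of the comparison left out (adjusted p 0.0893 to 0.186). Translational efficiency was tested as the change of footprints relative to that of RNA. Libraries were scaled within each kind, so efficiency is relative to most genes, and an overall change of translation would not show. The fit used 1 spread per gene for both kinds, though footprint replicates were less alike than RNA replicates. Its standard errors can therefore be too small. For Keap1 at 2 h of KCl the standard error was 0.197 for efficiency and 0.219 for footprints alone. Efficiency of Nfe2l2 fell at 2 h of H2O2 with a log2 change of -1.03 ± 0.25 (edgeR, adjusted p = 0.0135). Leaving out 1 library at a time gave -1.53 to -0.74, and the call was lost without replicate 2 of the RNA control (adjusted p = 0.0525). At 7 h of H2O2 the log2 difference of efficiency was -0.05 ± 0.24 and was not called. Under KCl, footprints of Nfe2l2 were at 199 and 211 CPM at 2 h and at 148 and 187 CPM at 7 h, and neither footprints nor efficiency were called.

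Nfe2l1, which encodes NRF1, had higher RNA under H2O2 and at 7 h of KCl, with smaller log2 changes than Nfe2l2, and lower RNA at 42 °C. Its RNA was at 296 and 295 CPM in the control, 339.9 and 341 CPM at 2 h and 387 and 412 CPM at 7 h of H2O2. It was at 266 and 265 CPM at 2 h and at 363 and 359 CPM at 7 h of KCl. No groups overlapped. The log2 change was 0.20 ± 0.06 at 2 h of H2O2 (edgeR, adjusted p = 0.00679), 0.43 ± 0.06 at 7 h of H2O2 (adjusted p = 6.92e-06), -0.16 ± 0.06 at 2 h of KCl (adjusted p = 0.0276) and 0.29 ± 0.06 at 7 h of KCl (adjusted p = 0.000344). The call at 2 h of H2O2 was lost without replicate 1 of that group (log2 0.15, adjusted p = 0.122). The call at 2 h of KCl was lost on leaving out any 1 of its 4 libraries (adjusted p 0.0516 to 0.0902) and with only its 2 groups in the fit (adjusted p = 0.0946). In heat, Nfe2l1 RNA was at 385 and 372 CPM in the control, 357 and 369 CPM at 44 °C, and 208 and 217 CPM at 42 °C. It fell 1.78-fold at 42 °C (log2 -0.83 ± 0.04, edgeR, adjusted p = 1.03e-09) and was not called at 44 °C (log2 -0.06 ± 0.04, adjusted p = 0.184). Its footprints were at 169 and 196 CPM in the control, 152 and 196 CPM at 2 h and 223 and 223 CPM at 7 h of H2O2, and 131 and 110.2 CPM at 2 h and 187 and 155 CPM at 7 h of KCl. None of these differences was called.

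Keap1 RNA, which encodes the sensor that holds NRF2 for degradation, was lower in all 6 stress groups. It was at 68.5 and 78.1 CPM in the control, 57.2 and 55.2 CPM at 2 h and 47.0 and 47.0 CPM at 7 h of H2O2. At 2 h of KCl it was at 58.2 and 53.9 CPM, and at 7 h at 52.9 and 50.2 CPM. Every treated library lay below both control libraries. The log2 change was -0.38 ± 0.07 at 2 h of H2O2 (edgeR, adjusted p = 0.000418), -0.64 ± 0.07 at 7 h of H2O2 (adjusted p = 1.89e-06), -0.39 ± 0.07 at 2 h of KCl (adjusted p = 0.000402) and -0.51 ± 0.07 at 7 h of KCl (adjusted p = 2.25e-05). In heat, its level was 83.5 and 87.5 CPM in the control, 78.2 and 80.5 CPM at 44 °C, and 77.7 and 79.0 CPM at 42 °C. The log2 change was -0.11 ± 0.04 at 44 °C (edgeR, adjusted p = 0.0428) and -0.13 ± 0.04 at 42 °C (adjusted p = 0.0235). At 44 °C this call was lost without replicate 1 of that group (adjusted p = 0.165), without replicate 2 of the control (adjusted p = 0.253), with DESeq2 (adjusted p = 0.141), with its size factors in edgeR (adjusted p = 0.0607), with limma on log2(TPM + 1) (adjusted p = 0.552) and with only the 2 groups in the fit (adjusted p = 0.0577). At 42 °C it was lost without replicate 1 of that group (adjusted p = 0.130), without its replicate 2 (adjusted p = 0.0647), without replicate 2 of the control (adjusted p = 0.185) and with DESeq2 (adjusted p = 0.0845).

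No difference of Keap1 footprints from the control was called. They were at 39.4 and 44.2 CPM in the control, 58.7 and 39.4 CPM at 2 h and 38.4 and 37.4 CPM at 7 h of H2O2. Under KCl they were at 46.3 and 48.7 CPM at 2 h and 47.3 and 42.0 CPM at 7 h. Both libraries at 7 h of H2O2 lay below the control (log2 -0.14 ± 0.22), both at 2 h of KCl lay above it, and the other groups overlapped it. The log2 difference of efficiency of Keap1 was positive in all 4 comparisons, at 0.49 ± 0.20 at 2 h of H2O2, 0.50 ± 0.20 at 7 h of H2O2, 0.56 ± 0.20 at 2 h of KCl and 0.63 ± 0.20 at 7 h of KCl, and none was called by edgeR (adjusted p 0.0703 to 0.123). DESeq2 called it at 2 h of KCl (log2 0.60, adjusted p = 0.0273) and at 7 h of KCl (log2 0.63, adjusted p = 0.0304), and without footprint replicate 2 of 2 h of H2O2 edgeR called it there (log2 0.83, adjusted p = 0.00981). These 4 differences share the control libraries.

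Bach1, the repressor at the same elements, was the gene of the 8 whose RNA went in opposite directions at 7 h of the 2 agents. It was at 53.5 and 59.6 CPM in the control, 84.7 and 85.7 CPM at 2 h and 33.1 and 34.0 CPM at 7 h of H2O2. It was at 79.6 and 86.5 CPM at 2 h and 80.7 and 91.5 CPM at 7 h of KCl. The libraries at 7 h of H2O2 were the lowest of the experiment, and the other 3 treated groups overlapped each other above the control. The log2 change was 0.59 ± 0.07 at 2 h of H2O2 (edgeR, adjusted p = 1.32e-05), -0.75 ± 0.08 at 7 h of H2O2 (adjusted p = 8.23e-07), 0.56 ± 0.07 at 2 h of KCl (adjusted p = 2.32e-05) and 0.61 ± 0.07 at 7 h of KCl (adjusted p = 5.49e-06). In heat Bach1 was at 71.5 and 72.6 CPM in the control, 62.8 and 62.4 CPM at 44 °C and 51.2 and 58.0 CPM at 42 °C. It fell by 0.20 ± 0.05 on the log2 scale at 44 °C (edgeR, adjusted p = 0.00382), where limma on log2(TPM + 1) did not call it (-0.13, adjusted p = 0.120), and by 0.40 ± 0.05 at 42 °C (edgeR, adjusted p = 1.95e-05).

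Footprints of Bach1 were at 25.7 and 25.6 CPM in the control and at 58.6 and 64.7 CPM at 7 h of KCl. They rose 2.41-fold there (log2 1.27 ± 0.25, edgeR, adjusted p = 0.0047). At 2 h they were at 56.0 and 42.9 CPM with H2O2 and at 51.7 and 32.3 CPM with KCl, above both control libraries but not called (log2 0.92 ± 0.26, edgeR, adjusted p = 0.0887, and log2 0.71 ± 0.26, adjusted p = 0.129). At 7 h of H2O2, where its RNA fell, footprints were at 21.4 and 27.9 CPM, on both sides of the control. The log2 difference of efficiency there was 0.70 ± 0.26, not called by edgeR (adjusted p = 0.106) and called by DESeq2 (log2 0.71, adjusted p = 0.0497).

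The 3 small MAF genes, which encode the shared DNA-binding partners, had the largest RNA changes of the 8 genes at 2 h of both agents in Maff and Mafk. Maff RNA was at 20.3 and 23.6 CPM in the control, 131 and 129 CPM at 2 h and 40.9 and 46.4 CPM at 7 h of H2O2. It was at 115 and 112 CPM at 2 h and at 40.8 and 44.5 CPM at 7 h of KCl. Both agents thus had high levels at 2 h and overlapping lower levels at 7 h, all above the control. Maff rose 5.92-fold at 2 h of H2O2 (log2 2.57 ± 0.08, edgeR, adjusted p = 1.55e-11), 5.17-fold at 2 h of KCl (log2 2.37 ± 0.08, adjusted p = 6.52e-11), 1.99-fold at 7 h of H2O2 (log2 0.99 ± 0.08, adjusted p = 9.39e-08) and 1.95-fold at 7 h of KCl (log2 0.96 ± 0.08, adjusted p = 2.00e-07). In heat it was at 16.01 and 17.1 CPM in the control, 23.6 and 25.3 CPM at 44 °C and 46.5 and 47.6 CPM at 42 °C, without overlap. Its log2 change was 0.56 ± 0.07 at 44 °C (edgeR, adjusted p = 3.35e-06) and 1.51 ± 0.06 at 42 °C (adjusted p = 1.68e-10).

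Mafk RNA was at 24.7 and 31.0 CPM in the control, 143 and 142 CPM at 2 h and 113 and 118 CPM at 7 h of H2O2. It was at 123 and 129 CPM at 2 h and 42.3 and 42.5 CPM at 7 h of KCl. Unlike Maff, it stayed high at 7 h of H2O2, and no groups overlapped. Mafk rose 5.14-fold at 2 h of H2O2 (log2 2.36 ± 0.08, edgeR, adjusted p = 3.67e-11), 4.16-fold at 7 h of H2O2 (log2 2.06 ± 0.08, adjusted p = 3.51e-11), 4.55-fold at 2 h of KCl (log2 2.19 ± 0.08, adjusted p = 1.41e-10) and 1.53-fold at 7 h of KCl (log2 0.61 ± 0.09, adjusted p = 2.32e-05). In heat it was at 22.1 and 24.0 CPM in the control, 34.2 and 38.3 CPM at 44 °C and 43.0 and 46.7 CPM at 42 °C. The log2 change was 0.66 ± 0.07 at 44 °C (edgeR, adjusted p = 1.49e-06) and 0.96 ± 0.07 at 42 °C (adjusted p = 5.05e-08).

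Mafg RNA was at 135 and 147 CPM in the control, 355 and 361 CPM at 2 h and 199 and 216 CPM at 7 h of H2O2. It was at 199.6 and 191 CPM at 2 h and 222 and 242 CPM at 7 h of KCl. Only 2 h of H2O2 stood far from the other treated groups. Mafg rose 2.54-fold at 2 h of H2O2 (log2 1.34 ± 0.07, edgeR, adjusted p = 1.56e-09), 1.47-fold at 7 h of H2O2 (log2 0.56 ± 0.07, adjusted p = 4.57e-06), 1.38-fold at 2 h of KCl (log2 0.47 ± 0.07, adjusted p = 4.96e-05) and 1.64-fold at 7 h of KCl (log2 0.72 ± 0.07, adjusted p = 4.21e-07). In heat it was at 141 and 133 CPM in the control, 183 and 206 CPM at 44 °C and 116 and 134 CPM at 42 °C. It rose at 44 °C (log2 0.51 ± 0.06, edgeR, adjusted p = 7.22e-06). At 42 °C, where its range overlapped the control, it was not called (log2 -0.13 ± 0.07, edgeR, adjusted p = 0.0919), but it was called lower by limma on log2(TPM + 1) (log2 -0.30, adjusted p = 0.00275). EdgeR also called it lower with no filter on low counts (log2 -0.14, adjusted p = 0.00857), with only the 2 groups in the fit (log2 -0.13, adjusted p = 0.0410) and without replicate 2 of 42 °C (log2 -0.23, adjusted p = 0.0200).

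Levels per transcript length, as the deposited TPM, allow the 3 partners to be compared with each other. Their summed level was 100.3 and 120.0 TPM in the shared control, 409 and 406 TPM at 2 h and 219 and 234 TPM at 7 h of H2O2, and 298 and 299.8 TPM at 2 h and 162 and 178 TPM at 7 h of KCl. Mafg made up 57.1% and 56.3% of the sum in the control, 35.1% in both libraries after 2 h of H2O2, and 26.7% and 25.8% after 2 h of KCl. Maff made up 23.9% and 23.6% in the control, 38.3% in both libraries after 2 h of H2O2, and 43.1% and 42.5% after 2 h of KCl. The share of Mafk at 7 h of H2O2 was 37.8% and 36.9%, against 19.1% and 20.1% in the control. In heat the sum was 99.0 and 97.8 TPM in the control, 138 and 148 TPM at 44 °C and 121 and 133 TPM at 42 °C, and Maff went from 19.1% and 20.4% in the control to 39.3% and 37.1% at 42 °C. The small MAF proteins are similar in sequence, and the sources used here do not say how reads shared by their genes were divided.

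**Figure D2:**
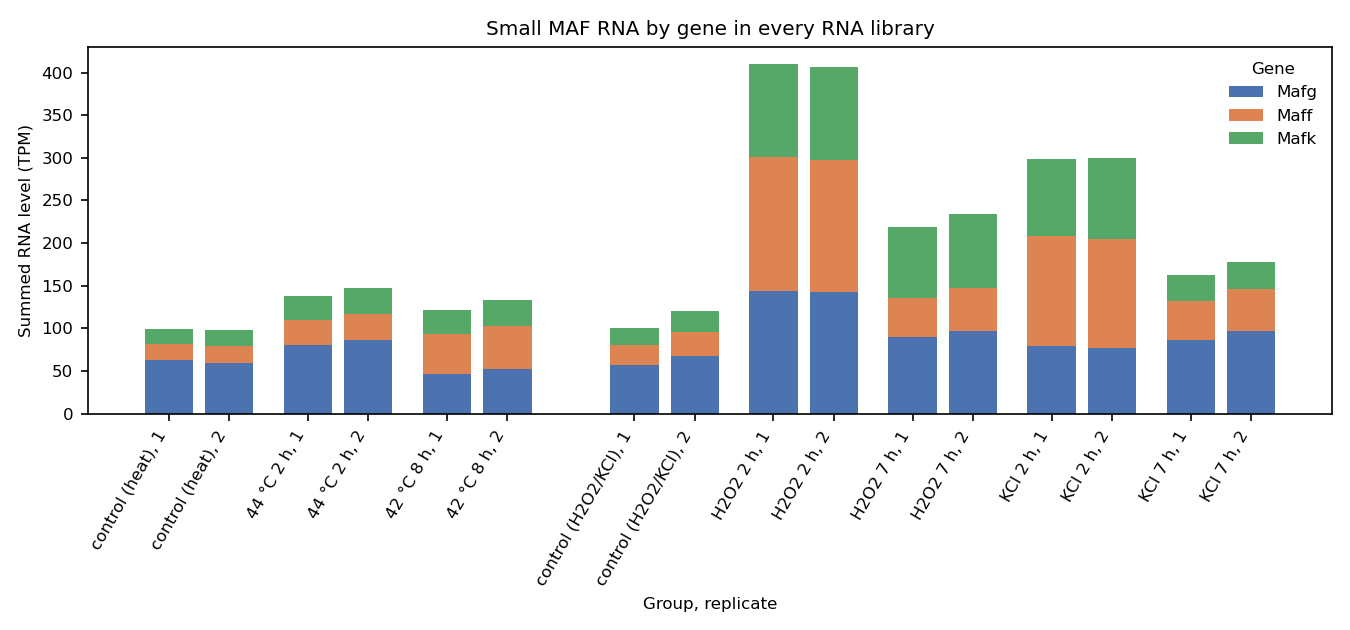
Summed RNA level of Mafg, Maff and Mafk in TPM (vertical axis, from 0) in each of the 16 RNA libraries, labelled by group and replicate (horizontal axis), with 1 colour for each gene. The sum reached 409 and 406 TPM at 2 h of H2O2 and 298 and 299.8 TPM at 2 h of KCl, with larger shares of Maff and Mafk than in the controls.

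Footprints on the small MAF genes differed in depth. Maff footprints were at 45.2 and 58.8 CPM in the control, 123 and 110.2 CPM at 2 h and 60.4 and 70.0 CPM at 7 h of H2O2, and 166 and 142 CPM at 2 h and 75.9 and 49.1 CPM at 7 h of KCl. They rose 2.96-fold at 2 h of KCl (log2 1.56 ± 0.23, edgeR, adjusted p = 0.002) and 2.24-fold at 2 h of H2O2 (log2 1.16 ± 0.23, adjusted p = 0.0237). The call at 2 h of H2O2 was lost on leaving out any 1 of its 4 libraries (adjusted p 0.0526 to 0.175), with only its 2 groups in the fit (adjusted p = 0.106) and with limma on log2(TPM + 1) (adjusted p = 0.0637). These rises were smaller than those of the RNA. The efficiency of Maff fell by 1.44 ± 0.23 on the log2 scale at 2 h of H2O2 (edgeR, adjusted p = 0.00104) and changed by -0.81 ± 0.23 at 2 h of KCl (adjusted p = 0.028). The call at 2 h of KCl was lost on leaving out replicate 1 of the RNA control, either RNA library of 2 h of KCl, replicate 2 of the footprint control or footprint replicate 2 of 2 h of KCl (adjusted p 0.0704 to 0.127, log2 -0.83 to -0.61).

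Mafk footprints were at 14.2 and 13.7 CPM in the control, 66.0 and 53.3 CPM at 2 h and 54.9 and 67.7 CPM at 7 h of H2O2, and 67.8 and 32.3 CPM at 2 h and 34.6 and 19.3 CPM at 7 h of KCl. All treated libraries lay above the control. They rose 4.21-fold at 2 h of H2O2 (log2 2.08 ± 0.35, edgeR, adjusted p = 0.0104), 4.38-fold at 7 h of H2O2 (log2 2.13 ± 0.35, adjusted p = 0.000595) and 3.58-fold at 2 h of KCl (log2 1.84 ± 0.35, adjusted p = 0.00793). The call at 2 h of H2O2 was lost without replicate 1 (adjusted p = 0.0626) or replicate 2 of the control (adjusted p = 0.0693) and with limma on log2(TPM + 1) (adjusted p = 0.0501). The call at 2 h of KCl was lost without replicate 1 of that group (log2 1.21, adjusted p = 0.0941). Mafg had only 17 to 65 footprint counts in a library, at 8.07 and 6.32 CPM in the control, 17.3 and 12.6 CPM at 2 h and 12.2 and 16.7 CPM at 7 h of H2O2, and 8.39 and 5.91 CPM at 2 h and 8.27 and 8.79 CPM at 7 h of KCl. Its rise at 7 h of H2O2 (log2 1.00 ± 0.33, edgeR, adjusted p = 0.0357) was lost on leaving out any 1 of its 4 libraries (adjusted p 0.0625 to 0.262) and with DESeq2 (adjusted p = 0.110).

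In the control, the ratio of footprint CPM to RNA CPM put Maff and Mafg near opposite ends of all genes, with Mafk between them. The ratio of Maff was 2.23 and 2.49, at percentile 96.4 of 10480 genes. For Mafg it was 0.0597 and 0.0429, at percentile 0.162. For Mafk it was 0.573 and 0.444, at percentile 30.8. The other 5 genes lay between percentile 26.05 for Bach1 and 75.4 for Nfe2l2. This ratio compares counts of the same gene without regard to length, and RNA counts include bases outside the coding part.

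Sqstm1, which encodes p62, had higher RNA under both agents and at 44 °C. Its RNA was at 442 and 420.3 CPM in the control, 905 and 783 CPM at 2 h and 1274 and 1353 CPM at 7 h of H2O2. It was at 719 and 658 CPM at 2 h and 594 and 670.4 CPM at 7 h of KCl. All treated libraries lay above the control, and the 2 KCl groups overlapped. Sqstm1 rose 1.96-fold at 2 h of H2O2 (log2 0.97 ± 0.08, edgeR, adjusted p = 2.69e-07), 3.05-fold at 7 h of H2O2 (log2 1.61 ± 0.08, adjusted p = 4.00e-10), 1.60-fold at 2 h of KCl (log2 0.67 ± 0.08, adjusted p = 8.40e-06) and 1.47-fold at 7 h of KCl (log2 0.55 ± 0.08, adjusted p = 3.10e-05). In heat it was at 461 and 469 CPM in the control, 798 and 863 CPM at 44 °C and 408 and 427 CPM at 42 °C. It rose 1.78-fold at 44 °C (log2 0.84 ± 0.04, edgeR, adjusted p = 1.17e-09). At 42 °C it fell by 0.16 ± 0.05 on the log2 scale (edgeR, adjusted p = 0.00728), a call lost without replicate 1 of that group (adjusted p = 0.0874). Its footprints were at 461 and 487 CPM in the control, 801 and 893 CPM at 2 h and 948 and 1515 CPM at 7 h of H2O2, and 691 and 672 CPM at 2 h and 663 and 639 CPM at 7 h of KCl. They rose 2.60-fold at 7 h of H2O2 (log2 1.38 ± 0.21, edgeR, adjusted p = 0.000399). At 2 h of H2O2 the footprint difference was 0.84 ± 0.21 and was not called by edgeR (adjusted p = 0.0619), but DESeq2 called it (adjusted p = 0.00751). Efficiency of Sqstm1 was called in none of the 4 comparisons, with log2 differences of -0.23 to -0.07.

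**Figure D3:**
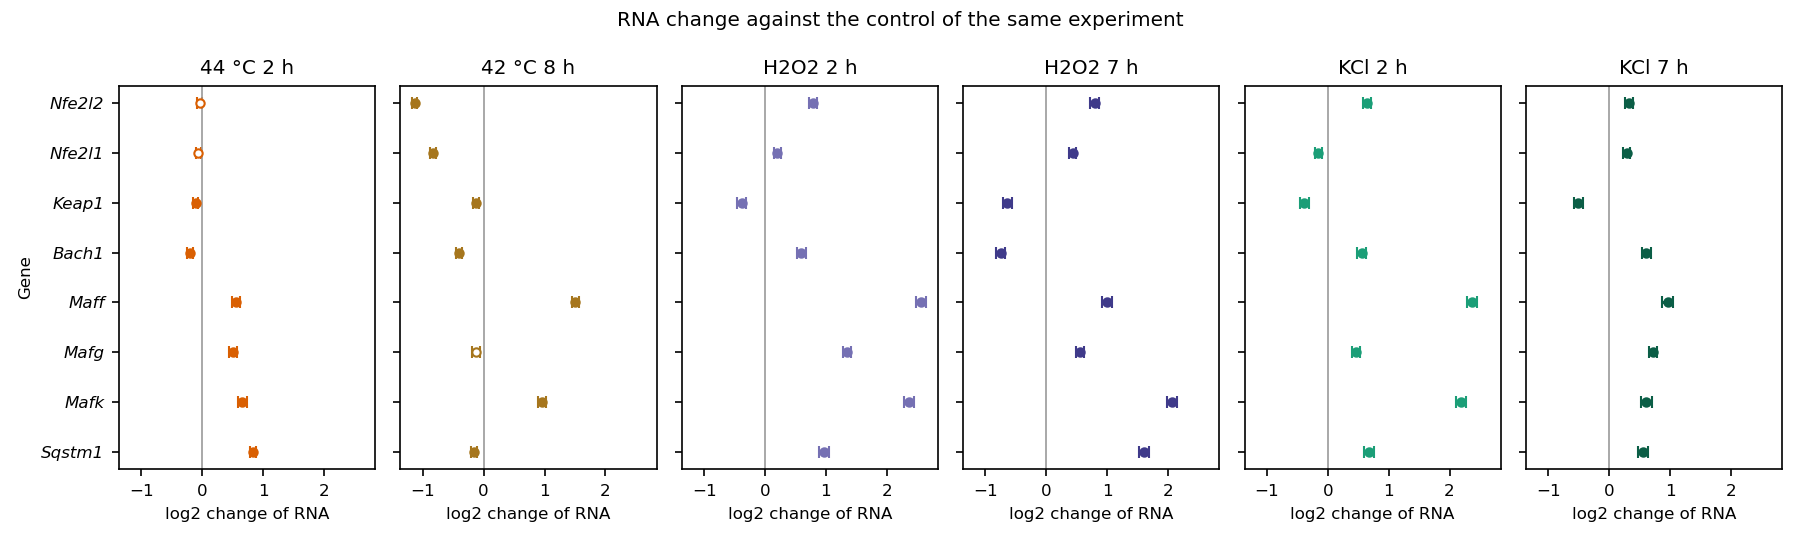
Log2 change of RNA (horizontal axis) of each gene (vertical axis) against the control of its experiment in 6 panels, with bars of 1 standard error; filled points were called and open points were not. Keap1 lies left of 0 in all 6 panels, Maff and Mafk lie right of 0 in all 6, and Bach1 is at -0.75 at 7 h of H2O2 and at 0.61 at 7 h of KCl.

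In footprints, 2 of the 8 genes were called higher at 2 h of H2O2, where 1.14% of 10545 genes were higher and 0.768% lower, and 0 or 1 with any 1 of the 4 libraries left out. After 7 h of H2O2, 4 were higher, with 17.2% of all genes higher and 10.6% lower, and 2, namely Mafk and Sqstm1, with any 1 of the 4 libraries left out. At 2 h of KCl, 2 were higher, with 1.79% of all genes higher and 5.06% lower. After 7 h of KCl, 1 was higher, with 10.5% of all genes higher and 9.83% lower. Efficiency was called lower for 2 of the 8 genes at 2 h of H2O2, with 3.98% of 10480 genes higher and 7.46% lower. It was called lower for 1 gene at 2 h of KCl, with 3.58% of all genes higher and 9.18% lower. By edgeR it was called for 0 of the 8 genes at 7 h of H2O2, with 4.69% of all genes higher and 4.57% lower, and for 0 at 7 h of KCl, with 1.69% higher and 3.88% lower. After 7 h of each agent, 3 of the 8, namely Keap1, Bach1 and Maff, had an unadjusted p under 0.05 for efficiency, and so had 3 of the 8 at 2 h of each agent. The share of all genes under this unadjusted threshold is not given here. At 7 h DESeq2 called 1 of the 8, Bach1 with H2O2 and Keap1 with KCl, where it called 1417 and 1078 of all genes.

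**Figure D4:**
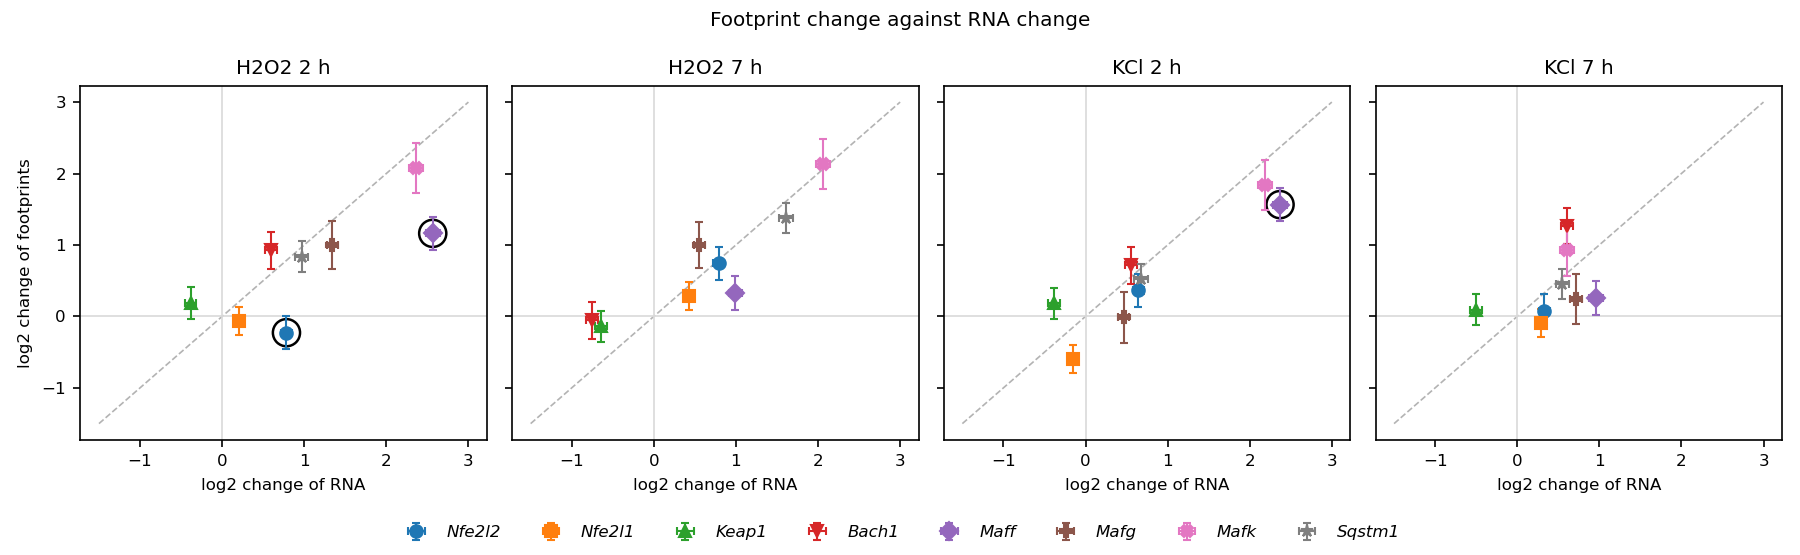
Log2 change of footprints (vertical axis) against log2 change of RNA (horizontal axis) for the 8 genes at each time of H2O2 and KCl, with bars of 1 standard error; the dashed line marks equal change, and black rings mark genes whose efficiency was called. Maff and Nfe2l2 lie under the line and ringed at 2 h of H2O2, and Maff is ringed again at 2 h of KCl.

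Both times of an agent share 1 control whose time is not given. Length of exposure and time in culture therefore cannot be told apart. Comparing times within an agent, 2 of the 8 genes were higher at 7 h than at 2 h of H2O2 and 5 lower, with 37.3% and 36.1% of all genes. Bach1 fell 2.54-fold between these times (log2 -1.35 ± 0.08, edgeR, adjusted p = 1.63e-09), Maff 2.97-fold (log2 -1.57 ± 0.08, adjusted p = 3.75e-10) and Mafg 1.73-fold (log2 -0.79 ± 0.07, adjusted p = 1.10e-07). Sqstm1 rose 1.56-fold (log2 0.64 ± 0.08, edgeR, adjusted p = 6.39e-06). Mafk fell less, by 0.30 ± 0.08 on the log2 scale (edgeR, adjusted p = 0.00312), Keap1 fell by 0.26 ± 0.07 (adjusted p = 0.00588) and Nfe2l1 rose by 0.23 ± 0.06 (adjusted p = 0.00177). Nfe2l2 was not called between them (log2 0.01 ± 0.07, adjusted p = 0.923), and its sign turned with DESeq2's size factors (log2 -0.03) and on log2(TPM + 1) (log2 -0.08). For KCl, 2 genes were higher at 7 h than at 2 h and 3 lower, with 35.1% and 33.7% of all genes. Maff fell 2.65-fold (log2 -1.41 ± 0.08, edgeR, adjusted p = 2.62e-09) and Mafk 2.98-fold (log2 -1.58 ± 0.08, adjusted p = 1.39e-09), Nfe2l2 fell by 0.31 ± 0.07 (adjusted p = 0.00104) and Nfe2l1 rose by 0.44 ± 0.06 (adjusted p = 6.65e-06). Mafg rose by 0.25 ± 0.07 (edgeR, adjusted p = 0.00479), a call lost without replicate 2 of 7 h of KCl (adjusted p = 0.0611).

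Comparing the agents at matched times, 4 of the 8 genes were higher with H2O2 than with KCl at 2 h and 0 lower by edgeR, with 27.0% and 24.2% of all genes. Mafg was 1.83-fold higher (log2 0.88 ± 0.07, edgeR, adjusted p = 1.31e-07), Nfe2l1 1.28-fold (log2 0.36 ± 0.06, adjusted p = 0.0001), Sqstm1 1.23-fold (log2 0.29 ± 0.08, adjusted p = 0.0076) and Maff 1.15-fold (log2 0.20 ± 0.08, adjusted p = 0.0436). The call of Maff was lost on leaving out any 1 of its 4 libraries (adjusted p 0.0606 to 0.149), and that of Sqstm1 without replicate 1 of 2 h of H2O2 (adjusted p = 0.137) or replicate 2 of 2 h of KCl (adjusted p = 0.0587), so that 2 of the 8 genes were called without either of these libraries. Mafk (log2 0.18 ± 0.08, edgeR, adjusted p = 0.0775) and Nfe2l2 (log2 0.14 ± 0.07, adjusted p = 0.0954) were not called, but Mafk was with no filter on low counts (adjusted p = 0.0396) and Nfe2l2 with limma on log2(TPM + 1) (log2 0.25, adjusted p = 0.0121). At 7 h, 4 were higher with H2O2 and 2 lower, with 41.0% and 37.4% of all genes. Mafk was 2.73-fold higher (log2 1.45 ± 0.08, edgeR, adjusted p = 9.51e-10), Sqstm1 2.08-fold (log2 1.06 ± 0.08, adjusted p = 2.29e-08) and Nfe2l2 1.38-fold (log2 0.46 ± 0.07, adjusted p = 2.26e-05). Bach1 was 2.57-fold lower (log2 -1.36 ± 0.08, edgeR, adjusted p = 9.37e-10). Nfe2l1 was higher by 0.15 ± 0.06 (edgeR, adjusted p = 0.0255), a call lost without replicate 2 of 7 h of H2O2 (adjusted p = 0.206) or either library of 7 h of KCl (adjusted p 0.0698 and 0.0952), with DESeq2's size factors (adjusted p = 0.0527) and with only the 2 groups in the fit (adjusted p = 0.0511). Keap1 was not called (log2 -0.13 ± 0.07, edgeR, adjusted p = 0.112), but it was called lower with only the 2 groups in the fit (log2 -0.15, adjusted p = 0.0404). Mafg was lower by log2 -0.16 ± 0.07 (edgeR, adjusted p = 0.0418), but it was at 0.02 on log2(TPM + 1) (limma, adjusted p = 0.80), and the call was lost without replicate 1 of 7 h of H2O2 (adjusted p = 0.232) or replicate 2 of 7 h of KCl (adjusted p = 0.282).

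The heat groups differ in both temperature and time, which cannot be told apart. In the cells at 42 °C, 2 genes were higher than at 44 °C and 5 lower, with 37.9% and 37.2% of all genes. Nfe2l2 was 2.13-fold lower at 42 °C (log2 -1.09 ± 0.04, edgeR, adjusted p = 2.93e-11), Sqstm1 1.99-fold (log2 -0.99 ± 0.05, adjusted p = 1.36e-10), Nfe2l1 1.70-fold (log2 -0.77 ± 0.04, adjusted p = 7.61e-10) and Mafg 1.56-fold (log2 -0.64 ± 0.07, adjusted p = 5.77e-07). Bach1 was lower by log2 -0.20 ± 0.06 (edgeR, adjusted p = 0.0047), a call lost without replicate 1 of 42 °C (log2 -0.11, adjusted p = 0.121). Maff was 1.93-fold higher (log2 0.95 ± 0.06, edgeR, adjusted p = 4.85e-09). Mafk was higher by 0.31 ± 0.07 (edgeR, adjusted p = 0.00102), but limma on log2(TPM + 1) did not call it (log2 0.00036, adjusted p = 0.997). Keap1 was not called (log2 -0.02 ± 0.05, edgeR, adjusted p = 0.712), while limma on log2(TPM + 1) called it lower (log2 -0.29, adjusted p = 0.00021). In log2(TPM + 1) all genes had a median of -0.16 between 42 °C and its control and -0.20 between 42 °C and 44 °C, and of 0.11 for footprints at 7 h of H2O2.

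Per transcript length, Nfe2l2 RNA relative to that of Keap1 and to that of Bach1 was highest at 7 h of H2O2 within the H2O2 and KCl experiment. Within the heat experiment both ratios were lowest at 42 °C. In the shared control the ratio of Nfe2l2 to Keap1 in TPM was 3.05 in replicate 1 and 2.42 in replicate 2. With H2O2 this ratio reached 6.28 and 6.25 after 2 h, then 7.09 and 7.28 after 7 h. With KCl it reached 5.14 and 5.87 after 2 h, then 4.43 and 5.07 after 7 h. The heat control had ratios of 2.92 and 2.71, cells at 44 °C had 2.94 and 2.90, and cells at 42 °C had 1.43 and 1.41. For Bach1 as the denominator, the shared control had 6.77 and 5.51. H2O2 gave 7.28 and 6.84 after 2 h, then 17.7 and 17.7 after 7 h. KCl gave 6.55 and 6.42 after 2 h, then 5.13 and 5.02 after 7 h. The heat control gave 6.06 and 5.79, cells at 44 °C gave 6.51 and 6.72, and cells at 42 °C gave 3.81 and 3.38. The ratio to Keap1 thus lay above both controls in all 8 treated libraries of the H2O2 and KCl experiment, and the ratio to Bach1 was far above the control at 7 h of H2O2. In heat both ratios lay below both control libraries at 42 °C.

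Of 20 NRF2 target genes, 9 were called higher and 2 lower at 2 h of H2O2, and 18 higher and 1 lower at 7 h, with medians of 0.14 and 0.89 on the log2 scale and 0.00 and 0.08 for all genes. Of all genes, 27.3% were higher and 26.5% lower at 2 h, and 39.4% and 31.1% at 7 h. Slc7a11, the cystine importer for glutathione synthesis, rose by 3.97 ± 0.12 at 2 h and 4.09 ± 0.12 at 7 h on the log2 scale, and Hmox1, which breaks down heme and is a known BACH1 target, by 3.26 ± 0.09 and 2.97 ± 0.09 (edgeR, adjusted p of at most 6.05e-12 for these 4 values). Between 2 h and 7 h of H2O2, 17 of the 20 were higher at 7 h and 2 lower, where 37.3% and 36.1% of all genes were. Nqo1, a quinone reductase, was among those higher (log2 1.98 ± 0.08, adjusted p = 5.21e-11). With KCl, 8 were higher and 1 lower at 2 h (median 0.001, with 27.2% and 27.0% of all genes called), and 14 higher and 3 lower at 7 h (median 0.25, with 37.2% and 31.6% of all genes called). Gclc, of glutathione synthesis, rose at 7 h by 1.33 ± 0.06 (adjusted p = 3.91e-10) and Slc7a11 fell by 0.63 ± 0.15 (adjusted p = 0.00211). In footprints, 2 of the 20, Slc7a11 and Hmox1, were called higher at 2 h of H2O2 and 8 at 7 h, with 1.14% and 17.2% of all genes. Efficiency was lower for 5 of the 20 at 2 h and 4 at 7 h, with 7.46% and 4.57% of all genes. At 44 °C, 7 were higher and 8 lower in RNA (median -0.07), shares near the 35.4% and 35.7% of all genes, with Gclc at 1.33 ± 0.05 (adjusted p = 6.53e-11) and Slc7a11 at -1.89 ± 0.09 (adjusted p = 2.75e-10). At 42 °C, where Nfe2l2 RNA fell, 11 were higher and 5 lower, with 31.7% and 31.9% of all genes and a median of 0.11 against -0.01 for all genes. Slc7a11 went the other way from that median, from 58.2 and 48.2 CPM in the heat control to 4.49 and 5.08 CPM at 42 °C. In TPM it was at 13.8 and 11.4 in the heat control and at 2.00 and 2.21 in the shared control. Its changes in the 2 experiments thus start from unlike levels.

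Of 34 proteasome genes, known targets of NRF1, 1 was called higher and 25 lower at 44 °C (median -0.28), with 35.4% and 35.7% of all genes. At 42 °C, where Nfe2l1 RNA fell, 27 were higher and the other 7 were not called (median 0.18), with 31.7% of all genes higher and 31.9% lower. After 2 h of H2O2, 3 were higher and 8 lower (median -0.07), with 27.3% and 26.5% of all genes, so the share lower was near that of all genes. After 2 h of KCl, 3 were higher and the other 31 were not called (median 0.02), with 27.2% of all genes higher and 27.0% lower. At 7 h of H2O2, 12 were higher and 5 lower (median 0.06, with 0.08 for all genes), with 39.4% and 31.1% of all genes, and at 7 h of KCl, 2 were higher and 20 lower (median -0.16), with 37.2% and 31.6%. Psmd5, a chaperone of proteasome assembly, rose by 1.81 ± 0.07 on the log2 scale at 7 h of KCl (edgeR, adjusted p = 6.52e-11), while Psmb6, a catalytic subunit, fell by 1.02 ± 0.08 (adjusted p = 4.01e-08). Of 13 genes for other regulators of NRF2 and NRF1 proteins, 4 rose and 5 fell at 44 °C (median 0.05), with 35.4% and 35.7% of all genes, and 7 rose and 4 fell at 42 °C (median 0.12), with 31.7% and 31.9%. With H2O2, 3 rose and 5 fell at 2 h (median -0.08), with 27.3% and 26.5% of all genes, and 2 rose and 8 fell at 7 h (median -0.25), with 39.4% and 31.1%. With KCl, 5 rose and 5 fell at 2 h (median 0.04), with 27.2% and 27.0% of all genes, and 3 rose and 5 fell at 7 h (median -0.02), with 37.2% and 31.6%. Ddi2, the protease that activates NRF1, rose by 0.70 ± 0.07 at 7 h of H2O2 (edgeR, adjusted p = 6.77e-07). Ngly1, the glycanase that removes sugars from NRF1, fell by 1.38 ± 0.11 at 7 h of KCl (adjusted p = 5.29e-08) and by 1.01 ± 0.07 at 44 °C (adjusted p = 8.29e-09). Cul3, the cullin of the KEAP1 ligase, rose by 0.81 ± 0.08 at 7 h of KCl (adjusted p = 4.23e-07).

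Of 7 other genes of the NRF, BACH and MAF families, 5 passed the filter in RNA. At 44 °C, where 35.4% of all genes were higher and 35.7% lower, and again at 7 h of H2O2, where 39.4% and 31.1% were, 1 of the 5 rose and 4 fell. At 42 °C, with 31.7% and 31.9% of all genes, and at 2 h of KCl, with 27.2% and 27.0%, 2 rose and 1 fell. After 2 h of H2O2, with 27.3% and 26.5% of all genes, 1 rose and 1 fell, and at 7 h of KCl, with 37.2% and 31.6%, 1 rose and 2 fell. With 5 genes these counts are read as a description. Mafa, a large MAF factor, went from 0.253 and 0.407 CPM in the heat control to 5.84 and 6.89 CPM at 44 °C (log2 4.28 ± 0.24, edgeR, adjusted p = 1.93e-09). Bach2, the other BACH repressor, fell by 1.75 ± 0.09 at 44 °C (adjusted p = 9.84e-10) and rose by 1.06 ± 0.13 at 2 h of KCl (adjusted p = 8.09e-06). The large MAF gene Maf fell by 1.37 ± 0.07 at 7 h of H2O2 (adjusted p = 5.10e-10).

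Across the 16 RNA libraries, which hold 8 groups and share controls within each experiment, the pair most alike among the 8 genes was Maff and Mafk (Pearson r = 0.907 of log2(CPM + 1)), and the pair most opposed was Keap1 and Sqstm1 (r = -0.775). For every r and for the cut on mean CPM, the 16 libraries were scaled together, so differences between the experiments enter r. Keap1 had negative r with 6 of the other 7 genes and 0.0785 with Bach1. Among 9490 genes with a mean of at least 8 CPM, the gene most like each was Nup62 for Nfe2l2 (r = 0.918), Helz2 for Nfe2l1 (r = 0.915), Mtch1 for Keap1 (r = 0.975), Rell1 for Bach1 (r = 0.952), Cdk5r1 for Maff (r = 0.983), Litaf for Mafg (r = 0.946), Epha2 for Mafk (r = 0.979) and Ero1l for Sqstm1 (r = 0.970). The next genes were Tlr3 and Ptgs1 for Nfe2l2, Nif3l1 and Aars for Nfe2l1, Ankle1 and Tfeb for Keap1, and Itga5 and Aff4 for Bach1. They were Cpeb2 and Srsf10 for Maff, Rabgef1 and Arl5b for Mafg, Ppp1r15a and Ccdc47 for Mafk, and Lhfpl2 and Nfkb2 for Sqstm1, with r from 0.887 to 0.969 over these 16 genes.

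The series also addressed transcription that runs past the end of a gene into its neighbour. The authors' deposited tables give, for 6399 pairs of neighbouring genes and each RNA library, a call of transcription past the upstream gene and a call and an estimate of read-in at the downstream gene. The 8 genes stood in 11 pairs. Transcription past Sqstm1 towards Cnot6 was called in 9 of 12 stress libraries and 1 of 4 control libraries, with both replicates called at 44 °C, after either time of H2O2 and after 7 h of KCl. Past Nfe2l1 towards Snx11 it was called in 5 of 12 stress and 2 of 4 control libraries, and past Bach1 towards Krtap13-1 in 4 of 12 and 2 of 4. The share of all 6399 pairs called in each group is not given here, so these counts are a description of single pairs. Read-in was called in 2 libraries in all, from Mafg into Sirt7, in replicate 2 of the shared control (estimate 0.197) and replicate 2 of 2 h of KCl (estimate 1.09). In no library was read-in called where one of the 8 genes was the downstream gene. For Pycr1 into Mafg, the shared control had estimates of 0.0032 and 0.0029. H2O2 gave 0.0651 and 0.068 after 2 h, where Mafg RNA was highest, then 0.0344 and 0.0861 after 7 h. KCl gave 0.0105 and 0.0061 after 2 h, then 0.0069 and 0.0062 after 7 h. Mean Mafg RNA after 7 h was 232 CPM with KCl and 208 CPM with H2O2, but 91.9 and 93.3 TPM. The heat control gave 0.0063 and 0.0128, and cells at 44 °C gave 0.0198 and 0.0337. Cells at 42 °C gave 0.0199 and 0.0274, where Mafg RNA was not called. The estimate is a ratio and not a level, and a relation between it and Mafg RNA was not tested.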

How the data were processed

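The authors deposited expected counts per gene and TPM for RNA and footprint libraries, and, for pairs of neighbouring genes, true or false calls and an estimated ratio of read-in, with no formula given in the sources used here. The submitters' processing notes name STAR, RSEM, Bowtie and mm10, without roles or versions. The deposited expected counts of the RNA libraries were whole numbers, those of the footprint libraries were not checked for this, and counts of both kinds were rounded before testing. A further 12 columns carry names of no labelled sample, so they were left out. All 26 libraries used kept their labelled groups, and replicates of a group were compared and none were identical.

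Counts were tested with edgeR 4.0.16 (R 4.3.3; TMM scaling, filterByExpr, glmQLFit and glmQLFTest with Benjamini-Hochberg adjustment) in 3 fits of 1 kind of library, covering the heat RNA, the H2O2 and KCl RNA and the footprints, and in a joint fit of both kinds, whose interaction of library kind with group tested efficiency. They covered 12747, 13256, 10545 and 10480 genes. In the joint fit, scaling factors were set within each kind of library, so efficiency is relative to most genes. Printed CPM come from each experiment's own scaling, where a joint scaling of all 16 RNA libraries had been planned, because the joint scaling turned the sign of small differences within an experiment. The correlations between genes kept the joint scaling. The script was tested on simulated counts with 200 changed genes. These counts took the spread per gene from the fits, so they could not show whether 1 spread suits both kinds of library. DESeq2 1.42.0 and limma 3.58.1 were alternatives, with other size factors, no filter, the replicate number as a block and each library left out. For RNA and for footprints, limma was run on log2(TPM + 1), and 2 groups were also fitted alone. For efficiency, limma was run on counts with voom and a weight for each kind of library.

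The 8 genes and all lists were chosen with earlier results of these data known. All 8 were named in every comparison. From each list, examples came from the up to 2 called genes with the largest rise and the up to 2 with the largest fall, and likeness named the 3 genes with the highest r. The values of 1 listed gene are not reported here. Promoter windows, coordinates and names came from RefSeq (GRCm38.p6), where all 8 symbols matched. Protein sequences were not used here. With 2 replicates a group, the depth of footprint libraries limits precision, and p-values cover the spread between libraries.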

Additional observations from a re-analysis of the deposited data

Results flagged for a closer look

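RNA levels of 7 of the 8 genes under H2O2 differed between 2 h and 7 h (edgeR, Benjamini-Hochberg adjusted p under 0.05). Of all genes, 37.3% were higher and 36.1% lower. With 1 control for both times, this test compares 7 h with 2 h directly. The log2 difference of 7 h from 2 h was 0.23 for Nfe2l1, -0.26 for Keap1, -1.35 for Bach1, -1.57 for Maff, -0.79 for Mafg, -0.30 for Mafk and 0.64 for Sqstm1. Bach1 was the one gene among them that was above the shared control at 2 h and below it at 7 h. Under KCl, 5 of the 8 genes differed between 2 h and 7 h, where 35.1% of all genes were higher and 33.7% lower, a share of called genes no larger than among all genes, with log2 differences of -0.31 for Nfe2l2, 0.44 for Nfe2l1, -1.41 for Maff, 0.25 for Mafg and -1.58 for Mafk. Nfe2l1 was below the shared control at 2 h and above it at 7 h of KCl.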

How the results depend on the processing

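Of 86 called log2 changes of the 8 genes, 869 values under the alternatives gave 1 change of sign and 59 lost calls, and of 66 that were not called, 747 values gave 39 changes of sign and 19 gained calls. On log2(TPM + 1) the sign turned for Nfe2l2 RNA at 44 °C (0.021), Nfe2l2 RNA between 7 h and 2 h of H2O2 (-0.083), Mafg RNA between H2O2 and KCl at 7 h (0.024), Mafg footprints at 2 h of KCl (0.0077) and Bach1 footprints at 7 h of H2O2 (0.042). With DESeq2's size factors and with DESeq2 it turned for Nfe2l2 RNA between 7 h and 2 h of H2O2 (-0.026 with each) and for Mafg footprints at 2 h of KCl (0.024 and 0.025). The number of the 8 genes called in footprints at 2 h of H2O2 was 0 with limma on log2(TPM + 1) and 1 with only the 2 groups in the fit, and at 7 h of KCl it was 2 with only the 2 groups. With DESeq2 the number called for efficiency was 1 at 7 h of H2O2, 2 at 2 h of KCl and 1 at 7 h of KCl, where it called 1417, 1820 and 1078 of all genes. The cause was not tested. Leaving out 1 library at a time, with the lone library of its group assumed to vary like the others, gave 2 to 3 called genes for RNA between H2O2 and KCl at 2 h. In footprints it gave 0 to 1 at 2 h and 2 to 2 at 7 h of H2O2 and 1 to 2 at 2 h of KCl. For efficiency it gave 1 to 3 at 2 h and 0 to 1 at 7 h of H2O2, and 0 to 1 at each time of KCl. It turned the sign in RNA for Nfe2l2 between 7 h and 2 h of H2O2 (-0.030 to 0.025), Bach1 (-0.025 to 0.094) and Keap1 (-0.056 to 0.057) between agents at 2 h, Bach1 between 7 h and 2 h of KCl (-0.040 to 0.14), Maff between agents at 7 h (-0.058 to 0.11) and Keap1 between 42 °C and 44 °C (-0.041 to 0.0040). In footprints it did so at 2 h of H2O2 for Nfe2l2 (-0.70 to 0.088), Nfe2l1 (-0.27 to 0.0996) and Keap1 (-0.087 to 0.48), at 7 h of H2O2 for Bach1 (-0.30 to 0.079), at 2 h of KCl for Mafg (-0.28 to 0.23), and at 7 h of KCl for Nfe2l2 (-0.098 to 0.24), Nfe2l1 (-0.23 to 0.033) and Maff (-0.080 to 0.55). In efficiency it did so at 7 h of H2O2 for Nfe2l2 (-0.14 to 0.039), Mafk (-0.081 to 0.25) and Sqstm1 (-0.61 to 0.051), at 2 h of KCl for Bach1 (-0.23 to 0.45) and Mafk (-0.98 to 0.085), and at 7 h of KCl for Mafk (-0.11 to 0.73) and Sqstm1 (-0.15 to 0.033). It also gained a call of lower Maff efficiency at 7 h of H2O2 without replicate 1 of the footprint control (-0.85, edgeR, adjusted p = 0.0473) and at 7 h of KCl without its footprint replicate 1 (-1.005, adjusted p = 0.0205). Footprint depth limits what could be detected.

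The labels do not say whether same-numbered replicates of different groups share more than a number. Correlations of their deviations were 0.036 to 0.11 in heat RNA and -0.13 to 0.17 in H2O2 and KCl RNA. In footprints they were -0.40 to 0.44, with a median of 0.20. Between the RNA and the footprint deviations of the same group they were -0.19 to 0.093. With the replicate number as a block, the number of all genes called was 0.93 to 1.203 times that without it. The block added a call of Mafk RNA between H2O2 and KCl at 2 h (0.18, edgeR, adjusted p = 0.0469), which made 5 of the 8 genes called there, and changed no other number of called genes among the 8.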
